A study of Capra hircus with 2 samples.

Results

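Unnamed candidate hairpins are the entries of these small RNA lists that carry no miRNA name. By the authors' sorting, their reads matched no mammalian miRNA hairpin of miRBase but lay on the goat genome in a sequence that may fold back on itself. They were taken as all entries with an empty miRNA name, and entries of both libraries were joined where they overlapped on the same strand of the same chromosome. This gave 268 of 2599 entries in the CD49f-positive list and 193 of 2338 in the CD49f-negative list, which form 289 loci. Of these loci, 99 were listed in both libraries, 128 in the CD49f-positive library alone and 62 in the CD49f-negative library alone. The libraries differed in depth and the matching counts for named miRNAs are not given here, so these counts do not set the unnamed loci apart. Despite the sorting, 7 loci list a sequence that lies within a known hairpin. These 7 hold most of the unnamed reads, 40022 CD49f-positive and 15287 CD49f-negative ones.

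The cells came from 3 testes of 3 Saanen dairy goats aged 5 months. The testes were digested with enzymes, a night of plating was meant to take out Sertoli and myoid cells, and unattached cells were sorted with magnetic beads for CD49f, an integrin chain on the cell surface by which spermatogonial stem cells can be enriched. Each group, CD49f-positive and CD49f-negative testicular cells, had 1 library, although the series text speaks of triplicates and no source used here says whether goats were pooled. No difference below therefore has a replicate check, no p-value is given, and every interval covers counting error only, because reads copied by PCR and not tagged by molecule are not independent.

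A miRNA is cut from a hairpin-shaped precursor as a duplex of its 5′ and 3′ arms, and it recognises messenger RNAs mainly through its seed, bases 2 to 8. In the testis small RNAs also include piRNAs, which are longer than miRNAs, tend to begin with U and are not cut from hairpins. Sorting an unnamed read into either class therefore rests on its length, its ends, the fold around it and whether both arms are seen. Ruminants carry a large, repeat-related miR-2284/miR-2285 family, and mammals carry a fast-evolving cluster of testis miRNAs on the X chromosome that includes miR-506, miR-507, miR-508 and miR-513.

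Listed sequences of selected loci with at least 100 reads over both libraries are printed here, as DNA letters from 5′ to 3′, with the seed in capitals. Others, among them the best-read sequence, on chromosome 12, and that of scaffold2364, are printed further below. Coordinates are those of the lists, whose genome build is not given in the sources used here. The first 3 lie inside hairpins of known miRNAs.
chr19:26101602-26101862, minus strand, in the miR-195 hairpin: tAGCAGCAcagaaatgttggt
chrX:24353891-24354151, plus strand, 5′ arm, in the miR-450b hairpin: tTTTGCAAcatgttcctgaaa
chrX:24353891-24354151, plus strand, 3′ arm: aTCGGGAAcattttgcatca
chr10:3916239-3916499, minus strand: aAAACACGaacaaacttttcg
chrX:48103541-48103802, minus strand, 3′ arm: aATCGGTAtctgtctgagtaga
chrX:48103541-48103802, minus strand, 5′ arm: tGCTTAGActggtactgatc
chrX:48157296-48157558, minus strand, 5′ arm: tGCCTAGAgaggttctgtttact
chrX:48159300-48159561, minus strand, 3′ arm: tGAAAGGAcctgcctgggtaga
chr21:35600513-35600782, plus strand: tCCCGGCGtcgtaattcaacaacaacctt
chr28:39590164-39590422, minus strand: aCCTGACTgtgacctgacc

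Named miRNAs took 8196507 reads of the CD49f-positive list and 3064462 of the CD49f-negative list, a 2.67-fold difference in depth. A count of 0 allows up to 3 reads, or 0.366 and 0.979 RPM (reads per 1000000 named reads). Unnamed entries took 45707 CD49f-positive reads, 0.555% of everything listed (exact Clopper-Pearson 95% interval 0.549 to 0.560), and 18827 CD49f-negative reads, 0.611% (0.602 to 0.619).

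Most of these reads belong to a single entry over the miR-16a hairpin on chromosome 12 (chr12:18444474-18444562, minus strand), given here only as a side note. The entry held 38387 CD49f-positive and 14577 CD49f-negative reads, 84.0% and 77.4% of all unnamed reads. Its listed sequence, tAGCAGCAcgtaaatattggaga, lies in that hairpin, whose product is a cell-cycle miRNA of the miR-15/16 family, and differs from the genome at the last base (T23A: the genome has T and the read A, counted from 1 at the read's 5′ end). Only 2 and 6 of its reads had no mismatch. The named miR-16a at the same hairpin was listed as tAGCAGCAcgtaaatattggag, 1 base shorter, with 16744 and 7293.5 reads, so the unnamed entry had more reads than the named one in both libraries.

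Without that entry, 7320 CD49f-positive reads (0.0888%, 0.0868 to 0.0909) and 4250 CD49f-negative reads (0.138%, 0.134 to 0.142) had no name. These reads are thinly spread: a locus had a median of 3 reads over both libraries, and 215 of 289 loci had under 10. The 18 loci with at least 100 reads held 96.6% of all unnamed reads, and the 17 of them off chromosome 12 held 80.8% of the rest. Summed over loci, the reads were also less faithful to the genome than those of named miRNAs. Without the chromosome 12 entry, 40.3% of unnamed CD49f-positive and 58.4% of unnamed CD49f-negative reads had no mismatch, against 67.3% and 64.0% of named reads. Large loci without any mismatch-free read weigh on these sums. The miR-450b locus held 1399 CD49f-positive and 624 CD49f-negative reads, and the scaffold2364 locus held 1218 CD49f-positive reads. Shares without these loci were not computed, so the gap describes the sums and not the loci one by one. Of the 18 loci with at least 100 reads, 5 had no mismatch-free read and 10 had 57.4% to 100% of such reads.

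**Figure D1:**
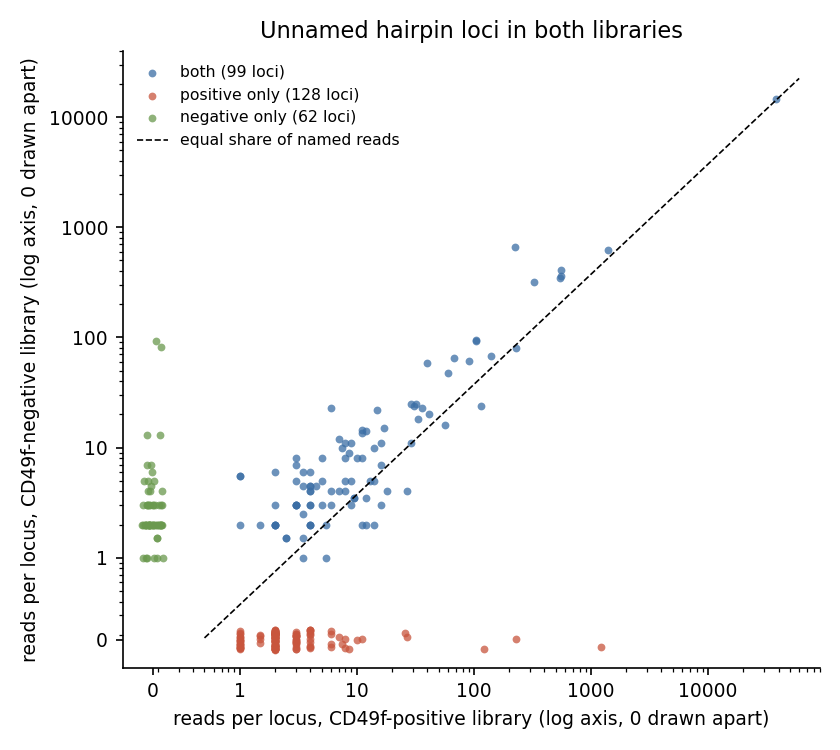
Reads per unnamed locus in the CD49f-positive (x axis) and CD49f-negative (y axis) library, both on log axes with 0 drawn apart and slightly scattered; each point is 1 of 289 loci and the dashed line marks equal shares of named reads. The chromosome 12 entry stands alone at 38387 and 14577 reads, and most loci of 1 library have fewer than 10 reads.

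The 7 loci whose listed sequence lies within a known hairpin, on either strand, are dominated by 3: the chromosome 12 entry, the miR-450b locus and the miR-195 locus. At the miR-450b locus, on the X chromosome beside miR-450a-1, the 5′ arm had 1275 CD49f-positive and 575 CD49f-negative reads and the 3′ arm 124 and 49. Neither arm had a read without mismatch, and in both arms and both libraries the listed sequence left the genome at the last base only (T21A in the 5′ arm, C20A in the 3′ arm). The deposited hairpin is shown to place both arms, with the stretch under the 5′ read in capitals as the genome has it.
chrX:24353891-24354151, plus strand: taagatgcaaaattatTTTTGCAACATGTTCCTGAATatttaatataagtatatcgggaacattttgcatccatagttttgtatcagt

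The named entries of the same hairpin were more abundant. miR-450b, listed as tTTTGCAAcatgttcctgaat, had 16582 CD49f-positive and 4138 CD49f-negative reads, and its 3′ arm, aTCGGGAAcattttgcatc, had 985.3 and 312. The unnamed 5′ sequence thus has the length of the named one with another last base, and the unnamed 3′ sequence is the named one plus an A. By reads their ratios, the log2 of the share of named reads in CD49f-positive cells over that in CD49f-negative cells, differed too. The unnamed locus stood at -0.26 (95% interval -0.39 to -0.12), its 5′ arm alone at -0.27 (-0.41 to -0.13), and named miR-450b at 0.58 (0.53 to 0.63). Copies of the listed sequence alone did not show this difference: the unnamed 5′ arm, with 564 and 131 copies, stood at 0.68 (0.41 to 0.97), and named miR-450b, with 9925 and 2353, at 0.66 (0.59 to 0.72). The direction of the unnamed locus also turned with the scaling, to 0.20 with TMM, 0.36 with median-of-ratios scaling and 0.05 without the 10 most abundant miRNAs in the total.

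At the miR-195 locus the listed sequence, of the same miR-15/16 seed family, matched the genome throughout. It had 230 CD49f-positive and 80 CD49f-negative reads, 135 and 43 of them without mismatch. The named miR-195 of this hairpin, tAGCAGCAcagaaatgttgg, is the same sequence without the last T and had only 55 and 13 reads. The log2 ratio of the unnamed locus was 0.10 (-0.27 to 0.49) and that of named miR-195 was 0.62 (-0.23 to 1.66), and these intervals overlap.

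The remaining 4 of the 7 loci are small. An entry antisense to the miR-34b hairpin, tGGCAGTGgaactagtgattgt at chr15:20048522-20048783, had 2 reads in each library. miR-34b itself, a miRNA of meiotic and later male germ cells, lies on the plus strand there with 1829.5 CD49f-positive and 2735 CD49f-negative reads in its 5′ arm. By interval rather than by sequence, 6 loci shared at least 1 base with a known hairpin on the same strand, and 8 did so on either strand. Counting named entries of every kind, also those placed by similarity to another species, 19 of 289 loci overlapped a named entry on their strand. Those in the miR-450b, miR-16a and miR-195 hairpins have the named sequences given above.

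The largest recognisable group outside known hairpins resembled miR-2284/miR-2285. The heptamer AACTTTT, or AAAAGTT on the other strand, stood in 69 of 353 distinct unnamed listed sequences (19.5%). It stood in 99 of 159 distinct sequences named miR-2284 or miR-2285 (62.3%) and in 6 of 3024 distinct sequences of other names (0.198%). The 69 loci that list such a sequence, on 32 chromosomes or contigs, had 1577 CD49f-positive and 876 CD49f-negative reads. For 66 of them the nearest named sequence by edit distance was a miR-2284 or miR-2285, against 35 of the other 220 loci. The median distance was 3 edits, against 7 for loci without the heptamer. Choosing loci by a heptamer common in that family and rare elsewhere already favours both outcomes. The nearest names and distances are therefore no separate support for the likeness.

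In this group 3 loci passed 100 reads. A pair with the same listed sequence, at chr10:3916239-3916499 and on the unplaced contig C69023355 (578 to 838, plus strand), had 556 and 364 reads, and 545 and 343 reads. These are shared reads: the sequence had 553 and 295 copies in all, and the authors split them between both places. Both places also overlap entries on the same strand that the lists name miR-2284y and miR-2284f. These named entries had 612 and 514.5 reads on chromosome 10, and 706 and 499.5 on the contig. The third, at chr16:17683041-17683303 on the minus strand, had 114.5 and 24 reads. Its sequence ends in a T that the genome lacks (G23T), and none of its reads was free of mismatch. These sequences and that of a smaller X chromosome locus are set beside miR-2285o and miR-2285f of cattle, as the lists give them, with the heptamer in capitals.
chr10:3916239-3916499: aaaacacgaacaAACTTTTcg
chr16:17683041-17683303: aaaaaaccgagtgAACTTTTtgt
chrX:31062773-31063035: aaaacctgaatgAACTTTTgag
bta-miR-2285o: aaacccgaacgAACTTTTgg
bta-miR-2285f: aaaacctgaatgAACTTTTtgg

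The log2 ratios were -0.81 (-1.001 to -0.61) at the chromosome 10 locus and -0.75 (-0.95 to -0.55) at the contig, and 0.81 (0.18 to 1.53) at the chromosome 16 locus. The chromosome X locus in the list above, 2 edits from miR-2285f in its CD49f-positive form, had 27 and 4 reads, all without mismatch, and a ratio of 1.19 (-0.19 to 3.31). Smaller members of the group had like sequences: chr16:51010269-51010529 had 36 and 23 reads, none without mismatch, chr11:87329635-87329897 had 16 and 3, and chrX:93542274-93542572 had 7 and 4. The chromosome 11 locus overlaps a named miR-2284s entry (1 and 0 reads), and chrX:93542274-93542572 a named miR-2284aa entry (51 and 0 reads). Scaled by the named reads, no locus of the group met the size rule given next, and with TMM or median-of-ratios scaling the chromosome 16 locus met it as higher. The summed reads of the group had a log2 ratio of -0.57 (-0.69 to -0.45).

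Loci were called higher or lower when both libraries together gave at least 100 reads, the shares differed by 2-fold or more and the interval left out equal shares. By this rule 3 of the 18 loci were higher in CD49f-positive cells and 7 were lower. Over all 317 miRNA names and loci with at least 100 reads, 2.52% were higher and 25.9% lower. The median log2 ratio was -0.78 over the 18 loci, -0.43 over 299 miRNA names and -0.44 over both. Scaling bears on this: TMM, which leans less on the few dominant miRNAs, raises every log2 ratio by 0.45. It gave 4 loci higher and 1 lower, against 9.46% and 12.9% of all names and loci. Median-of-ratios scaling raises them by 0.61 and gave 4 and 1, against 11.7% and 9.46%. The fourth locus called higher by both was chr16:17683041-17683303, at 1.26 (0.63 to 1.98) with TMM and 1.42 (0.80 to 2.14) with median-of-ratios scaling.

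**Figure D2:**
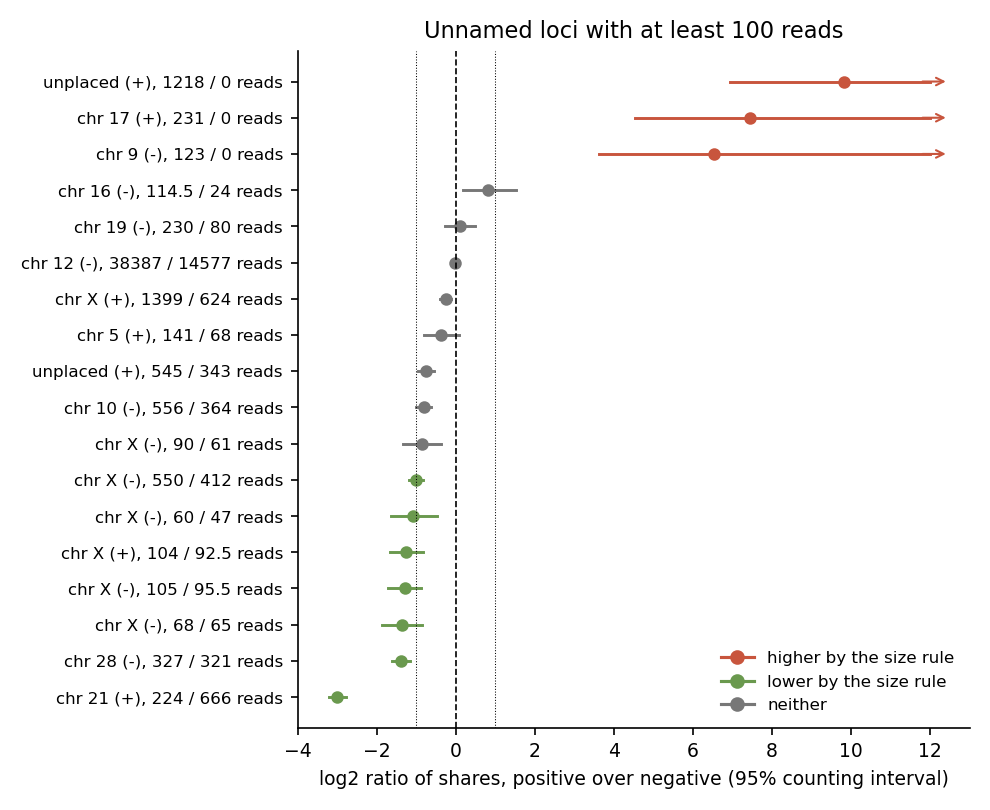
Log2 ratio of shares of named reads, CD49f-positive over CD49f-negative (x axis), for the 18 unnamed loci with at least 100 reads, each labelled with chromosome, strand and reads in the positive and negative library; lines are 95% counting intervals, arrows mark intervals without an upper end (the point of such a locus depends on the 0.5 reads added), and dotted lines mark 2-fold. The 3 loci without CD49f-negative reads lie far to the right, and the chromosome 21 locus lies lowest at -2.99.

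The X chromosome held 27 of 289 loci (9.34%), close to its 53 of 480 known hairpins in these lists (11.0%). It held 7 of the 18 loci with at least 100 reads and 5 of the 7 called lower. The matching X chromosome shares among named miRNAs were not computed, so no enrichment can be read from these counts. The 5 include a pair that shares its reads, and none of the 5 was called lower with TMM. On the minus strand, 6 of the 27 lie between 48103541 and 49314429, of which 4 had at least 100 reads. They are not 1 unbroken run: the first stretch ends at 48160076 and the second starts at 49244223, 1084 kb further on. All 6 were listed in both libraries, with 803 CD49f-positive and 613 CD49f-negative reads in all, and 81.0% of these reads had no mismatch. miR-507 and miR-508 of other species were placed in the second stretch only by the CD49f-positive list, at 49260404 to 49264577 and 49280937 to 49281196.

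The best-read of these loci, chrX:48103541-48103802 in the first stretch, showed both arms of a hairpin. Its 3′ arm had 523 CD49f-positive and 395 CD49f-negative reads and its 5′ arm 27 and 17, with the same listed sequence for each arm in both libraries. The deposited hairpin is shown because it has the build of a miRNA precursor, with the 3′ read in capitals and the 5′ arm opposite it.
chrX:48103541-48103802, minus strand: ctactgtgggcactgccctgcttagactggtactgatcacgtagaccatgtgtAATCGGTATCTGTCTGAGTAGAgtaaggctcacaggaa
Of 962 reads, 89.0% had no mismatch. The nearest named sequence was miR-508 of the gorilla, at 6 edits, and no named miRNA shared its seed. It had 67.1 RPM among CD49f-positive and 134 RPM among CD49f-negative cells, a log2 ratio of -1.003 (-1.19 to -0.81), just at the 2-fold limit.

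Its neighbours were lower in CD49f-positive cells too. chrX:48157296-48157558 read mainly from the 5′ arm, with 68 CD49f-positive and 65 CD49f-negative reads, at a ratio of -1.35 (-1.87 to -0.84). chrX:48159300-48159561 read mainly from the 3′ arm, with 60 and 47 reads and a ratio of -1.07 (-1.64 to -0.48). With TMM the 3 ratios were -0.55, -0.90 and -0.62, so none passed 2-fold.

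Both loci of the second stretch are less clean. chrX:49314170-49314429 had 90 and 61 reads, at a ratio of -0.86 (-1.34 to -0.36), but only 20.5% of its reads had no mismatch and its 3′ listed sequence differed between libraries (aTTGGCACgtcttgggatga and aTTGGCACgtcttgga). Its seed is that of miR-96, miR-1271 and miR-507. chrX:49244223-49244482 had 32 and 25 reads, nearly all of the 3′ arm aATGGTGCttttttgtgaag. Its rare 5′ arm stood 2 or 3 edits from miR-513a, and the authors listed a rat miR-3585 on the same hairpin.

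The lists name the miRNAs of the second stretch unevenly, which touches any reading of it. The sequence tACTCCAGagggtgtcattc was listed as miR-508-5p and placed on the X chromosome in the CD49f-positive list (33 reads), and listed under the same name but placed nowhere on the genome in the CD49f-negative list (53 reads). Likewise tTCACAAGaaggtgtcattc was miR-3585-5p on the X chromosome in the CD49f-positive list (12 reads) and miR-513a without a place in the CD49f-negative list (12 reads). Absence of a placed entry from 1 list is therefore no sign of absence from that library.

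A second X chromosome pair was also called lower. The loci chrX:115090558-115090821 on the minus strand and chrX:115092280-115092543 on the plus strand list the same sequences and share their reads. The first had 105 CD49f-positive and 95.5 CD49f-negative reads (log2 ratio -1.28, -1.70 to -0.88) and the other 104 and 92.5 (-1.25, -1.66 to -0.82). The most abundant 5′ form differed by 2 bases at its start, which moves the seed.
CD49f-positive, 5′ arm: cTTGGTCCtacttgagcttagt
CD49f-negative, 5′ arm: tGGTCCTActtgagcttagtct
The CD49f-positive form had 20 copies and the CD49f-negative form 23, so the shift rests on few reads, and with TMM both loci fell short of 2-fold (-0.83 and -0.80).

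Among the 18 loci with at least 100 reads, the lowest ratio belonged to a long sequence. At chr21:35600513-35600782 the CD49f-positive list gave a 29-base sequence with 224 reads and the CD49f-negative list the same sequence with 1 more T (30 bases) and 666 reads. All reads of both matched the genome. The share was 27.3 RPM and 217 RPM, a log2 ratio of -2.99 (-3.22 to -2.77), and -2.54 with TMM, which keeps it past 2-fold. It is the only locus still called lower under TMM, under median-of-ratios scaling and with a 4-fold rule. The deposited hairpin is an inverted repeat that holds the exact reverse complement of the read (read in capitals).
chr21:35600513-35600782, plus strand: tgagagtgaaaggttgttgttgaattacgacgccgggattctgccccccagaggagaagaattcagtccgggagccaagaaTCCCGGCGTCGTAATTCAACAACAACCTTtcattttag
An overlapping locus on the minus strand, with 29 reads over both libraries, covers the other side of the repeat. Its most abundant listed sequence in each library is a near-copy of the plus-strand read, so the strand of these reads cannot be told.

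Sequences of 26 to 32 bases, the span usual for piRNAs, were listed at 16 loci and numbered 17 distinct sequences, of which 10 began with T and 7 had A at base 10. No listed sequence of either library exceeded 30 bases, so longer RNAs were not seen in these lists. The class held 404 CD49f-positive reads (5.52% of unnamed reads without the chromosome 12 entry) and 745 CD49f-negative reads (17.5%), against 0.0488% and 0.162% of named reads. The chromosome 21 locus alone gave 224 and 666 of these. Without it and the 16-base sequence described below, the class held 3.06% and 2.20%.

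Other long sequences were rarer. At chr15:31180662-31180931 a 30-base sequence, tAGAATGGttgacgttgagttcttcagaaa, had 40 CD49f-positive and 58 CD49f-negative reads, none without mismatch (C28A). Its log2 ratio was -1.95 (-2.57 to -1.35), with 98 reads, just under the read minimum. At chr21:25914936-25915204 the 29-base sequence tAGGTAAAgatgaccaggacaccaaaaga had 4 and 6 reads. chr16:61543292-61543560, chr17:40540227-40540492 and chr4:39110343-39110611 had 3 or 4 reads each, in 1 library only, too few to compare.

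The locus at chr28:39590164-39590422 mixed a long and a short sequence. Its 19-base sequence had 207 CD49f-positive and 321 CD49f-negative reads, and a 27-base sequence, tcaggaacaaaggGtctgacaccaaga, had 120 reads in the CD49f-positive list only, all but 1 with a mismatch (A14G, the capital). The deposited hairpin is shown because the listed arms do not face each other in it: the 27-base sequence begins right after the 19-base one (in capitals), with no loop between them.
chr28:39590164-39590422, minus strand: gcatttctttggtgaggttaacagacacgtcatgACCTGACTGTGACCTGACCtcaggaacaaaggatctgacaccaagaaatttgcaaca
The locus had 327 and 321 reads and log2 -1.39 for the ratio (-1.62 to -1.17), which TMM moved to -0.94.

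Lengths are those of the listed sequences, and all reads of an entry were counted at that length. Counted so, most unnamed reads fell in the usual span of miRNAs. Without the chromosome 12 entry, sequences of 21 to 24 bases held 60.7% of CD49f-positive (59.5 to 61.8) and 63.9% of CD49f-negative reads (62.4 to 65.3), against 96.3% and 95.8% of named reads. Those of 18 to 20 bases held 16.9% and 17.1%. The ends of the range rest on single entries: 1 sequence of 16 bases gave 1218 of the 1220 CD49f-positive reads of up to 17 bases. With that sequence and the chromosome 21 locus left out, 21 to 24 bases held 75.6% and 75.7%.

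**Figure D3:**
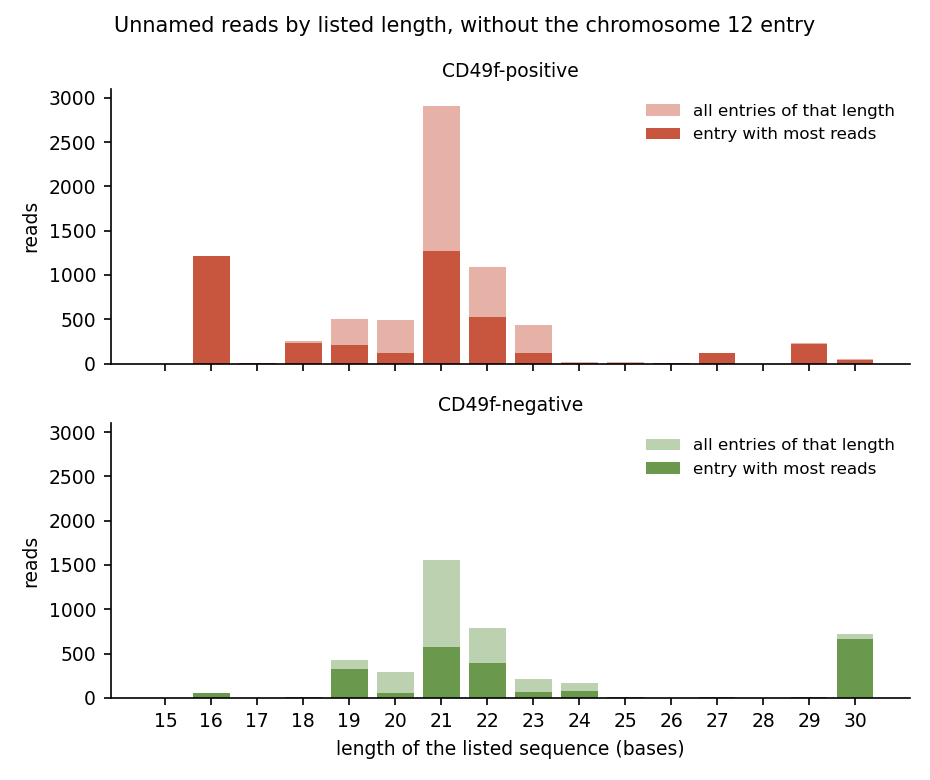
Reads of unnamed entries by the length of the listed sequence (x axis, bases), without the chromosome 12 entry, for the CD49f-positive (top) and CD49f-negative (bottom) library; pale bars are all entries of a length and dark bars the entry with most reads. The peak at 21 bases holds 2905 and 1557 reads, while the bars at 16 bases (1218 reads, positive) and 30 bases (725 reads, negative) come almost wholly from 1 entry.

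All 3 loci called higher had 0 CD49f-negative reads and no read free of mismatch. Their sequences are shown with the mismatched base in capitals.
scaffold2364, 73802 to 74057, plus strand: ctacagtccGacgatc
chr17:5858238-5858494, plus strand: tcgcatttgagctggAcc
chr9:76107828-76108086, minus strand: tctttttgctctGtgaatt
The 16-base sequence had 1218 CD49f-positive reads, 1214 of them copies of this very sequence, and was at least 152-fold higher (3 CD49f-negative reads taken as the floor). Its letters are those at the 3′ end of the 5′ RNA adapter of Illumina small RNA kits, which is background knowledge and was not tested on the files. The chromosome 17 sequence had 231 reads (at least 28.8-fold higher) and the chromosome 9 sequence 123 reads, all of them copies of the listed sequence (at least 15.3-fold higher).

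None of these 3 sequences, nor any sequence that contains or lies within one, was listed anywhere in the CD49f-negative list, under a name or without. With reads free of mismatch alone, no locus was called higher. The mirror case had reads that matched the genome. chrX:117493834-117494097 and the unplaced contig C66082784 (1 to 222, minus strand) had 0 CD49f-positive and 93.5 and 81.5 CD49f-negative reads, 88.5 and 51.5 of them without mismatch. Both list the sequence aCTGAGGAttcggccgggtaggtc with 27 copies, so they share reads, and both stand below the read minimum. With the same floor they were at least 83.4-fold and at least 72.7-fold lower among CD49f-positive cells.

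The other loci of 1 library had few reads: 121 of 128 CD49f-positive and 58 of 62 CD49f-negative ones had under 10. For 14 and 8 of them the same or a nested sequence was listed somewhere in the other library, in 8 and 6 cases under a miRNA name only. The deeper CD49f-positive library had more loci of its own, and depth and cell type cannot be told apart for these.

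Known germ-cell miRNAs also had lower shares in CD49f-positive cells. By the size rule 75 of 299 miRNA names were lower, so this sets neither them nor the unnamed loci apart. miR-34c-5p, a miRNA of meiotic and later male germ cells, took 2.13% of CD49f-positive and 10.9% of CD49f-negative named reads, and miR-449a-5p, of the same seed family, had a log2 ratio of -2.18. miR-143-3p, typical of smooth muscle, took 22.1% and 18.4%. Their part in the ratios of unnamed loci was not tested, and in such bulk libraries fewer cells of a type and less RNA per cell cannot be told apart.

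Both arms were listed at 52 of 289 loci, and at 21 of these in both libraries. chr5:102720931-102721232, GC-rich at 63.5%, had reads on both arms: its 5′ arm aTGTCCGCgggttccctatc had 54 CD49f-positive and 32 CD49f-negative reads and its 3′ arm aTGCGGAAcctgcggatacgg 87 and 36. Its log2 ratio was -0.37 (-0.79 to 0.07). Among the 41 pairs of locus and library with both arms and at least 10 reads, the major arm held over 90% of reads in 24.

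The folds of the unnamed entries had lower energies than those of known hairpins and less GC. The median folding energy was -43.4 kcal/mol over 461 unnamed entries (quartiles -52.6 and -32.1) and -38.4 over 1352 entries at known hairpins (-44.5 and -31.9). With each of the 289 loci taken once, by its best-read entry, the median energy was -41. Unnamed entries were listed only where the sequence may fold, and known hairpins by match to miRBase, so their energies were not selected alike. Median GC content was 40.3% (36.2 to 48.3) against 47.8% (41.1 to 54.5), and the median hairpin length 84 and 83 bases. The authors' own limits, an energy of at most -15 and a length of at least 50 bases, were missed by 15 unnamed entries and by 66 at known hairpins.

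Many of these folds are inverted repeats. An exact reverse complement of the listed sequence stood in the same hairpin for 29 of 268 CD49f-positive and 18 of 193 CD49f-negative entries, against 1 of 685 and 1 of 667 entries at known hairpins. At 15 places a locus on each strand overlapped, and 11 of these pairs listed a shared sequence, so that the strand of such reads cannot be told. Including repeats elsewhere, 58 of 289 loci listed a sequence that another locus also listed.

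Unnamed sequences began with A more often than those at known hairpins. Of the distinct sequences without the chromosome 12 entry, 51.7% of CD49f-positive and 42.0% of CD49f-negative ones began with A, and 37.0% and 43.7% with T. At known hairpins A began 32.6% and 31.6% and T 40.7% and 40.1%.

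Where a listed sequence had exactly 1 mismatch, it was often the last base. This held for 51 of 119 CD49f-positive entries (42.9%, exact 95% interval 33.8 to 52.3) and 34 of 95 CD49f-negative entries (35.8%, 26.2 to 46.3). At known hairpins it held for 54 of 182 (29.7%, 23.1 to 36.9) and 48 of 180 (26.7%, 20.4 to 33.8), and the intervals of both kinds overlap in each library. The last base was then T in 24 and A in 22 of the 51 CD49f-positive cases, and T in 17 and A in 15 of the 34 CD49f-negative cases. Over all entries, the listed sequence matched the genome for 54.9% and 50.3% of unnamed entries and for 72.6% and 71.7% of those at known hairpins.

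**Figure D4:**
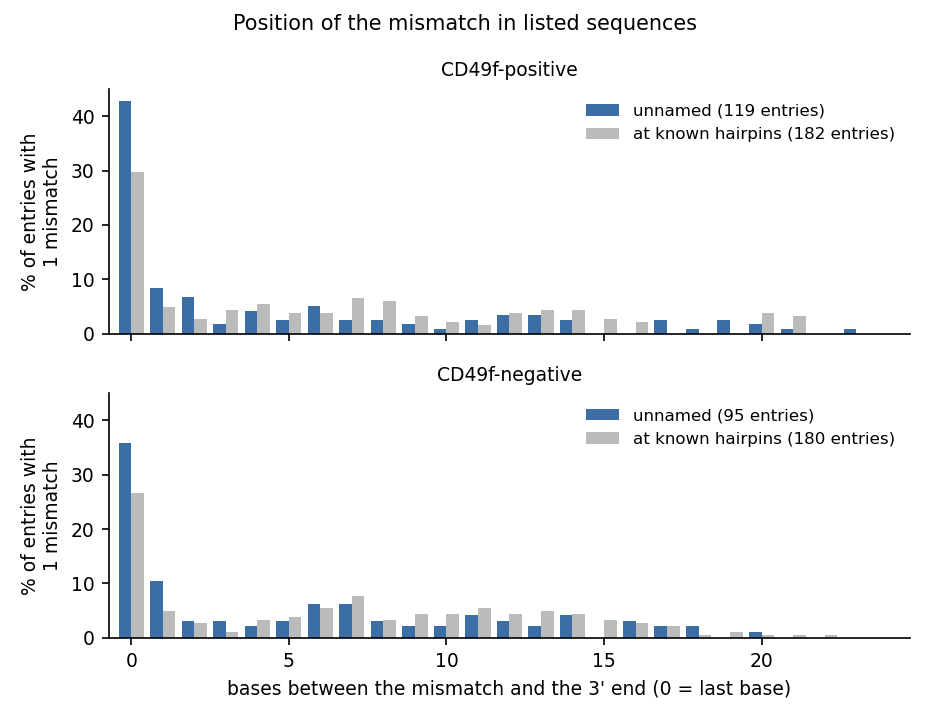
Position of the mismatch in listed sequences with exactly 1 mismatch, as the number of bases between it and the 3′ end (x axis) and the percent of such entries (y axis), for unnamed entries (blue) and entries at known hairpins (grey) in the CD49f-positive (top) and CD49f-negative (bottom) library. The last base holds 42.9% and 35.8% of unnamed and 29.7% and 26.7% of known-hairpin cases, more than any other position.

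Where a locus was listed in both libraries, the most abundant sequence was mostly the same. It was identical at 54 of 99 loci, differed at the 3′ end alone at 11 and at the 5′ end alone at 6. At 9 it kept the seed with other bases changed, and at 19 it differed in another way.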

How the data were processed

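Small RNAs of 2 libraries, 1 per group, were analysed; samples were grouped by label. The authors, per the file headers, sorted reads by match to miRBase, to a genome and to expressed sequences; aligner, miRBase release and genome build were not given in the sources used here. Read numbers of an arm are the expected counts that the authors deposited, split between places a read fits. Copies of a listed sequence are whole counts, GC content is a percent and the folding index a score, per the file headers; the score was not reported.

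Entries without a name were joined by overlap of at least 1 base on a strand. Ratios are shares of named miRNA reads (1824 names) with 0.5 reads added, and exact conditional binomial 95% intervals of rounded reads. A 0 was given a floor of 3 reads. Calls need 100 reads, 2-fold and an interval without 1. Calling was run on simulated, independent Poisson counts with 4-fold changes set beforehand. Such counts lack copied reads and spread between libraries, so the run does not show how sound the calls are. Edit distances used edlib 1.3.9.post1 and named sequences of the lists. Scaling factors alone came from edgeR 4.0.16 and DESeq2 1.42.0 (R 4.3.3). Python 3.11.15 ran the other steps, with SciPy 1.17.1 for intervals, pandas 2.3.3 for tables, numpy 2.4.6 and, for plots, matplotlib 3.10.9.

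Named are the 10 best-read loci of each library, those meeting the size rule, those with at least 100 reads against 0, the 8 best-read that overlap a named entry, 8 with both arms, 6 of 26 to 32 bases and 6 sharing a seed with a named miRNA. The antisense miR-34b, chromosome 16 (17683041) and C66082784 loci were added after their values were seen. Members, rules and lists were chosen with earlier results of these data known. Alternatives are given in the closing section.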

Additional observations from a re-analysis of the deposited data

How the results depend on the processing

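Of 329 recomputed log2 ratios of 28 loci, 270 kept their direction and their side of the size rule, 32 lost a call, 7 gained one, 18 moved and 2 reversed. The loci called higher, 3 in all, became 0 with mismatch-free reads, 4 with TMM, median-of-ratios scaling or without the 10 most abundant miRNAs in the total, 5 with no read minimum and 7 when only entries with the same start and end were joined. The 7 called lower became 1 with TMM, median-of-ratios scaling, copies of the listed sequence or a 4-fold rule, 3 without the 10 most abundant miRNAs in the total, 15 with a minimum of 30 reads and 54 with none. Joining by the same start and end left 61 loci in both libraries and turned the X chromosome pair near 115 Mb from lower to higher (6.30 and 6.29), because a 2-base shift of the interval parts its libraries; the chromosome 21 locus, likewise parted, moved to -11.80. The unnamed share became 0.0534% and 0.127% with mismatch-free reads, and 0.0888% and 0.138% without the chromosome 12 entry. Weighted by copies, 21 to 24 bases held 49.3% and 54.2% and 26 to 32 bases 4.42% and 27.8%; with each distinct sequence counted once, 66.0% and 66.1%, and 4.20% and 5.17%. No unnamed interval was overlapped by at least 50% by a known hairpin. Most unnamed intervals (390 of 461 entries) are the read plus 240 bases, with a median of 262 bases, against 95 for known hairpins. A typical known hairpin cannot cover 50% of such an interval, so this count does not show that the loci lie outside known hairpins. Leaving out the chromosome 12 entry, counting loci of the same sequence once and the copies of named miR-450b were chosen after seeing the data. No paired analysis was possible because each group has 1 library and the labels carry no replicate numbers. No library could be left out, and loci of under 10 reads are too shallow to compare.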
